A study of Homo sapiens with 26 samples.

Results

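Compounds 76 and 77 were compared directly in 786-O cells, a human clear cell renal carcinoma line. The comparison used 6 of the 26 arrays of the study, the 3 labelled with each compound, and all 54675 probe sets of the deposited table. The series text names 4 compounds that inhibit HIF-2a and came from a chemical genetic screen, and 76 and 77 are the numbers of a pair of them. The other groups were untreated cells (Blk, taken as untreated by elimination), cells given the vehicle DMSO, compounds 40 and 41, and the groups labelled PRC3 and WT8, with 3 arrays each, beside the single arrays pTR and pTV. All groups compared below are the same line, in which VHL, the ubiquitin ligase component that targets HIF-alpha, is inactive, so compound and vehicle groups share that defect. Total RNA was labelled with biotin and hybridised to Affymetrix U133 Plus 2.0 arrays. The labels state neither dose nor treatment time, and the structures behind the numbers are not used. Compound, dose and time therefore cannot be told apart in any difference below. Whether the 3 arrays per group stem from separate cultures is not stated, and p-values therefore reflect array-to-array spread alone, part or all of which may be technical.

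HIF-2a, encoded by EPAS1, is a transcription factor that pairs with ARNT and switches on genes of angiogenesis, glucose uptake and cell growth. The EPAS1 transcript carries an iron-responsive element, a hairpin in its leader that iron regulatory proteins bind to hold back translation. NRF2, encoded by NFE2L2, is the main activator of genes against oxidants and electrophiles. KEAP1 holds NRF2 for degradation until oxidants or electrophiles modify KEAP1, after which NRF2 binds with a small MAF protein to antioxidant response elements, while BACH1 competes for those elements, at HMOX1 above all.

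The 6 arrays were alike in quality. Median signal before normalization was 21.7 to 26.1 per array, and the share of kept values at the floor of 20 was 17.0% to 17.4%. The 3 prime over 5 prime signal ratio ran from 0.997 to 1.15 for ACTB and from 0.917 to 0.992 for GAPDH. The 24 arrays that share the spread estimate varied more, from 0.977 to 2.37 for ACTB and from 0.885 to 1.32 for GAPDH. Both maxima were on WT8 replicate 3. Their share at the floor was 16.7% to 20.8%, highest on compound 40 replicate 2. Over all kept probe sets, arrays of the same compound correlated at 0.963 to 0.975 and arrays of different compounds at 0.957 to 0.969. Of 10 fibroblast, 10 endothelial and 8 leukocyte markers, 3, 5 and 4 were at the floor on all 6 arrays, among them COL3A1, CDH5, VWF, PTPRC and CD14. Their summed signals were 324 to 374 with 76 and 324 to 355 with 77 for fibroblasts, 291 to 362 and 277 to 363 for endothelium, and 193 to 252 and 182 to 196 for leukocytes. In these lists 9, 9 and 8 genes stayed below 100 on all 6 arrays. COL1A1 measured 88.6 to 122 with 76 and 85.2 to 101 with 77, and PECAM1 75.0 to 117 and 47.1 to 78.4. EGFL7, an endothelial marker, measured 29.5 to 60.1 with 76 and 63.3 to 99.0 with 77. It did not overlap, as 6.65% of all genes were lower without overlap, and was not called. PAX8, a lineage factor of renal epithelium, measured 1075 to 1270.0 with 76 and 774 to 949.5 with 77. It did not overlap, as 8.27% of all genes were higher without overlap, and was not called. CDH16, the kidney cadherin, was at the floor on all 6 arrays. The summed signals of 14 renal epithelial markers were 2644 to 3491 with 76 and 2948 to 3942 with 77. Of the 13 kept, 9 differences lay below 0 and 4 above, with a median of -0.24. VCAM1 was the 1 called, lower with 76. In bulk RNA a change in every cell and a change in some of the cells cannot be told apart.

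Signals are MAS5 intensities after quantile normalization, on a linear scale, and a difference is log2 of compound 76 minus log2 of compound 77, so 1 is a 2-fold higher signal with 76. A probe set was called when its Benjamini-Hochberg adjusted p in limma was below 0.05 over the 35013 probe sets kept. limma called 166 probe sets (0.474%), 117 higher (0.334%) and 49 lower (0.14%) with compound 76. With arrays scaled to their medians in place of quantile normalization the split was 105 to 17, or 86.1% higher against 70.5%, and that scaling moved the median of all probe sets by 0.0315. On the scale of genes, each represented by its brightest single-gene probe set, 101 of 15124 (0.668%) were called, 72 higher (0.476%) and 29 lower (0.192%). Of these 45 were at least 2-fold higher and 16 at least 2-fold lower, and 13 and 1 passed 4-fold. In 100 of the 101 called genes no array with 76 overlapped an array with 77, against 14.9% of all genes. The calls were made on the same values, so this share is a description and no separate support for them. At an unadjusted p below 0.05, 710 genes were higher and 556 lower.

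More genes were called against the vehicle with compound 76 than with compound 77. Against DMSO limma called 474 probe sets (1.35%) with 76, 262 higher (0.748%) and 212 lower (0.605%), and 269 genes (1.78%), 154 higher (1.02%) and 115 lower (0.76%). With compound 77 there were 60 probe sets (0.171%), 43 higher (0.123%) and 17 lower (0.0486%), and 27 genes (0.179%), 21 higher (0.139%) and 6 lower (0.0397%). Both contrasts use the same 3 DMSO arrays, and whether the number of calls differs between the compounds was not tested. Single arrays moved the counts of called probe sets, and the full ranges are given with the alternatives below. For 76 the 474 probe sets became 273 without 76 replicate 2, 226 without 76 replicate 3 and 267, 277 and 267 without DMSO replicates 1, 2 and 3. For 77 the 60 probe sets became 125, 15 and 22 without 77 replicates 1, 2 and 3, and 25, 34 and 25 without the DMSO arrays in the same order. Most genes were close between the compounds. In 12528 of 15124 genes (82.8%) the 95% interval of the difference lay within 2-fold in either direction, and the median difference of all genes was 0.0019. The number of calls between the compounds also depended on single arrays. Leaving out 1 array at a time gave 76 to 143 called probe sets, with 105 without 76 replicate 2, 76 without 76 replicate 3, 102 without 77 replicate 2 and 96 without 77 replicate 3. Of the 101 called genes 35 kept their call in all 6 such fits, 27 of the 72 higher and 8 of the 29 lower. Fitted on the 6 arrays alone, with 4 residual degrees of freedom, limma called 6 probe sets, and the genes called were AKR1C3, SLC7A11, GCLC and GCLM, higher, and USP16, lower.

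**Figure D1:**
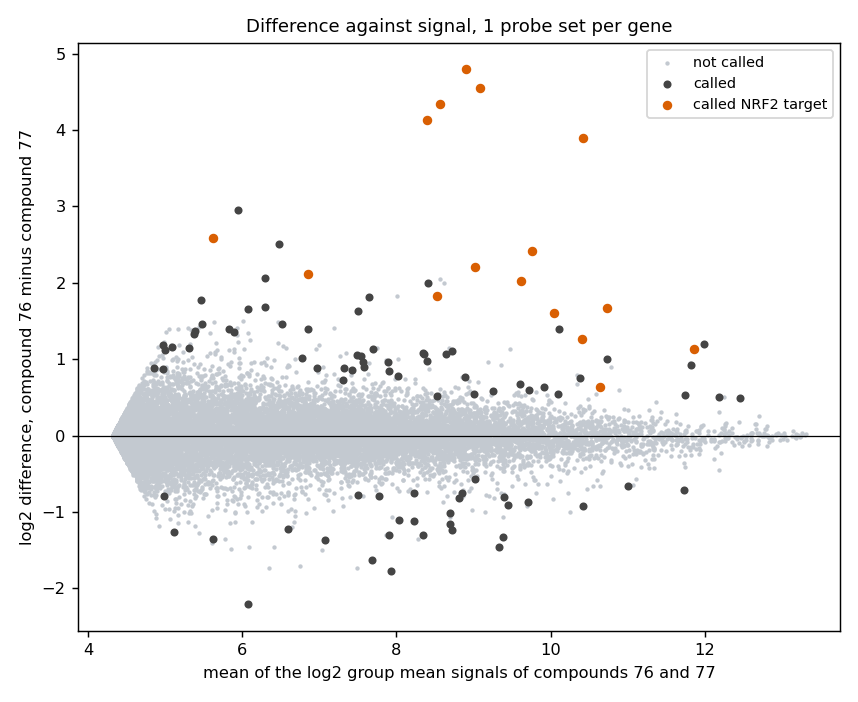
Log2 difference between compound 76 and compound 77 (vertical) against the mean log2 signal of both groups (horizontal), 1 point per gene for 15124 genes; dark points are called at an adjusted p below 0.05 and orange points are called NRF2 targets. The genes farthest above 0 are NRF2 targets, with AKR1C3 at 4.79 and HMOX1 at 4.55, and the lowest called gene is CLEC4E at -2.21.

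NRF2 target genes were higher with compound 76 than with compound 77. Of 33 listed targets 30 were measured, and 16 were higher and 0 lower with compound 76, against 0.476% of all genes called higher. Their median difference was 1.01, against 0.0019 over all genes, 29 of the 30 differences were above 0, and in 23 of 30 every array with 76 exceeded every array with 77, against 8.27% of all genes. Beside DMSO the median was 1.58 with compound 76, with 21 of 30 called higher beside 1.02% of all genes, and 0.20 with compound 77, with 2 called higher beside 0.139%. The 3 listed targets that were not measured are not analysed here. The list was written with earlier results of these data known, so its counts are a description.

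The antioxidant response element has the core TGACNNNGC, and it was looked for on both strands in RefSeq promoter windows of 300 bases, from 250 before to 50 after each start, on the GRCh38.p14 assembly. Windows were found for 12 of the 16 called NRF2 targets, and 5 of their 16 windows (31.2%) held the core, in 4 genes, against 13.3% of all 35116 windows and 14.5% of the windows of genes tested. The 9 NRF2 targets with a window that were not called held it in 3 of 9 windows (33.3%). The sites of the called genes are shown, with the core in capitals and 6 bases on each side, because 4 of the called members hold them close to a start. A match is a description of the letters and not a binding site, and elements outside the window were not searched.
GCLM, chr1:93909450-93909470, 34 bases before the start, opposite strand to the gene: agacaaTGACTAAGCagaaat
TXNRD1, chr12:104215674-104215694, 99 bases before a start, strand of the gene: gggctaTGACTTCGCtgttgt
TXNRD1, chr12:104215765-104215785, 8 bases before the same start, opposite strand: gggaacTGACGGAGCcgaagg
TXNRD1, chr12:104286924-104286944, 102 bases before another start, opposite strand: tcagaaTGACAAAGCagaaat
PGD, chr1:10398857-10398877, 201 bases before the start, opposite strand: cctagaTGACATTGCcccggc
EPHX1, chr1:225825270-225825290, 78 bases before the start, strand of the gene: attggcTGACTTGGCaggact

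Among the targets with a core near the start, GCLM encodes the modifier subunit of glutamate-cysteine ligase, the first enzyme of glutathione synthesis. GCLM measured 3065, 3045 and 3027 on the 3 arrays with compound 76, 968, 951 and 943 with compound 77 and 918, 1142 and 983 with DMSO. The 3 arrays of each compound were nearly equal, and compound 77 lay within the range of the vehicle. The difference was 1.67 (SE 0.11, limma adjusted p = 3.85e-09), or 3.19-fold. The catalytic subunit GCLC measured 734, 666 and 692 with 76, 191, 179 and 219 with 77 and 203, 219.8 and 242 with DMSO, a difference of 1.83 (SE 0.15, adjusted p = 5.04e-08). Of the 3 GCLC probe sets 2 were called, with differences between 0.32 and 1.83. SLC7A11, the cystine carrier that supplies cysteine for glutathione, measured 1938, 2195 and 1850.2 with 76 against 380.1, 436 and 309 with 77 and 459, 359 and 203 with DMSO. It was 5.36-fold higher with 76 (2.42, SE 0.30, adjusted p = 4.81e-05), and all 3 of its probe sets were called. For these glutathione genes every array with 76 lay above all arrays with 77 and DMSO. GSR, glutathione reductase, which regenerates reduced glutathione, differed by 0.71 (95% interval 0.09 to 1.34) and was not called (adjusted p = 0.589).

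HMOX1, heme oxygenase, which breaks heme down to biliverdin, carbon monoxide and iron, had the smallest adjusted p of the called genes. It measured 1714, 3708 and 2632 with compound 76, 90.7, 128 and 111 with compound 77 and 109.5, 77.8 and 84.6 with DMSO. Compound 77 overlapped the vehicle, and the arrays with 76 lay far above both. The difference of 4.55 (SE 0.27, adjusted p = 7.62e-10) is 23.5-fold. The other 12 measured genes of heme metabolism had no call, and HMOX2, the constitutive heme oxygenase, differed by -0.53 (adjusted p = 0.493). BLVRB, biliverdin reductase B, was alike with both compounds at 1102, 1193 and 1093 with 76 and 779, 1833 and 1153 with 77, against 461, 325 and 359 with DMSO. BLVRB was called above DMSO with each (1.58 and 1.64, adjusted p = 0.00336 and 0.0107), and the direct difference was -0.06 with an interval of -0.66 to 0.53.

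The aldo-keto reductases, which reduce aldehydes and ketones with NADPH, gave 4 of the 5 largest called differences. AKR1C3 measured 3263, 1942 and 2445 with 76, 85.3, 106 and 80.6 with 77 and 105, 98.9 and 159 with DMSO (4.79, SE 0.45, adjusted p = 8.31e-07). AKR1C1 measured 1587, 1493 and 1546 with 76, against 34.5, 166 and 77.2 with 77 (4.34, SE 0.34), and AKR1C2 1365, 1423 and 1223 against 43.5, 140.0 and 73.4 (4.13, SE 0.27). The AKR1C genes are near-identical copies, so probe sets may share signal between them, and 2 of the 4 AKR1C1 probe sets were called, with differences between 0.33 and 4.34. AKR1B10, an aldo-keto reductase of another subfamily, measured 4982, 3437 and 5592 with 76, 97.1, 624 and 477 with 77 and 95, 152 and 222 with DMSO. Here 77 replicate 1 lay at the level of the vehicle and replicates 2 and 3 above it. The difference was 3.90 (SE 0.49, adjusted p = 7.71e-05) and stayed called without any 1 array, between 3.07 and 4.41.

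The thioredoxin branch and the supply of NADPH held called and uncalled members. TXNRD1, thioredoxin reductase, measured 5555, 5756 and 5148 with 76 and 2042, 3045 and 2513 with 77 (1.13, SE 0.15, adjusted p = 8.86e-05). SRXN1, sulfiredoxin, which repairs over-oxidised peroxiredoxins, measured 826, 1343 and 1154 with 76 and 169.9, 287 and 270.2 with 77 (2.20, SE 0.29, adjusted p = 0.000125). In both genes the arrays of the compounds were separate, and those with 77 overlapped DMSO. TXN, thioredoxin itself, differed by 0.11 (interval -0.14 to 0.35) and the peroxiredoxin PRDX1 by 0.16 (interval -0.01 to 0.32), neither called. Of the pentose phosphate genes, PGD, phosphogluconate dehydrogenase, measured 2108, 2009 and 2169.6 with 76 and 969.6, 823 and 828 with 77 (1.27, SE 0.21, adjusted p = 0.00223), with 1 of its 3 probe sets called. TALDO1, transaldolase, had the smallest called difference of the list, 1863, 2062 and 2038 with 76 against 1278, 1265 and 1284 with 77 (0.64, adjusted p = 0.00573), and lost the call under median scaling. TKT, transketolase, differed by 0.60 (adjusted p = 0.173) and was called without 76 replicate 2 (0.80, adjusted p = 0.0308). A dimmer TKT probe set was called, at 204, 202 and 221 with 76 and 97.0, 110.5 and 95.7 with 77 (1.05, adjusted p = 0.0108). ME1, malic enzyme, differed by 0.52 (adjusted p = 0.264).

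The other called targets act in detoxification or are less defined. EPHX1, microsomal epoxide hydrolase, measured 1813, 1029 and 1917 with 76, 496, 261 and 409 with 77 and 511, 232 and 511 with DMSO (2.03, SE 0.37, adjusted p = 0.00672). It was the single called NRF2 target to lose its call when 1 array was left out, without 76 replicate 3 or 77 replicate 2, with differences between 1.76 and 2.31 over the 6 fits. UGDH, which makes the UDP-glucuronate used in conjugation, measured 2120.0, 1492 and 1913 with 76 and 548, 542 and 727 with 77 (1.60, adjusted p = 6.67e-06). OSGIN1, named for its induction by oxidative stress, measured 92.6, 134 and 138 with 76 and was at the floor of 20 on all arrays with 77 and DMSO, so it was at least 5.98-fold higher (adjusted p = 0.000242). NMRAL2P, a transcribed pseudogene, measured 294, 212 and 213 with 76 and 46, 65.8 and 54.6 with 77 (2.11, adjusted p = 3.55e-06). In each of these genes all arrays with 76 exceeded all arrays with 77.

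**Figure D2:**
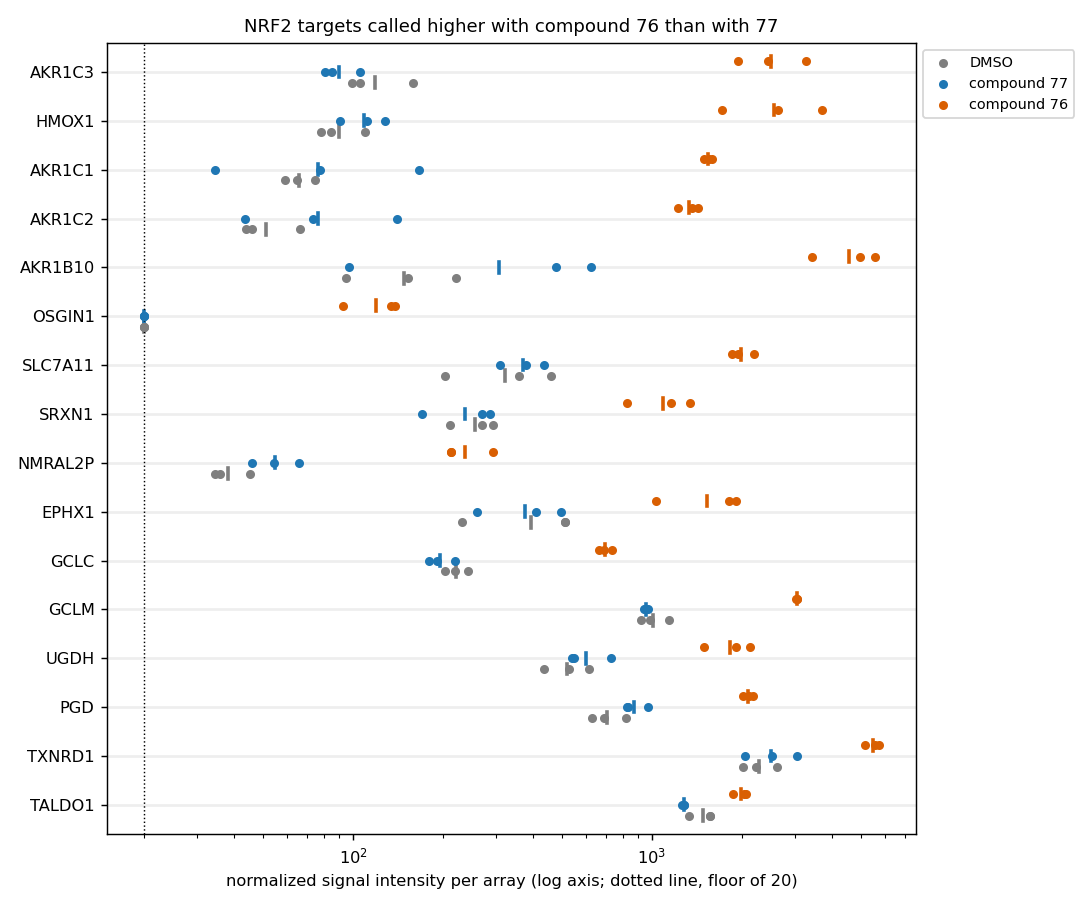
Normalized signal intensity on each array (points, log axis) for the 16 NRF2 targets called between the compounds, with DMSO in grey, compound 77 in blue and compound 76 in orange; vertical bars are geometric means of 3 arrays and the dotted line is the floor of 20. In all 16 genes the orange points lie to the right of the blue points, and in most genes the blue and grey points overlap.

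The 2 targets called above DMSO with compound 77 were NQO1 and PTGR1, and the brightest probe set of neither was called between the compounds. NQO1, a quinone reductase, measured 6152, 5413 and 5772 with 76, 3307, 4537 and 4474 with 77 and 1774, 1813 and 1824 with DMSO. Both compounds were called above DMSO, at 1.68 (adjusted p = 1.3e-08) with 76 and 1.17 (adjusted p = 8.19e-05) with 77. The arrays of the compounds did not overlap, but the direct difference of 0.51 (interval 0.24 to 0.77) was not called (adjusted p = 0.0913), although 1 of the 3 NQO1 probe sets was. PTGR1, prostaglandin reductase, measured 2270.3, 2298 and 2534 with 76, 901, 1583 and 1450.5 with 77 and 534, 399 and 426 with DMSO. It too was called above DMSO with each compound (2.40, adjusted p = 1.14e-07, and 1.50, adjusted p = 0.00146). Its difference of 0.89 missed the threshold (adjusted p = 0.058) and passed it without 77 replicate 2 (1.05, adjusted p = 0.0485). Of the 3 PTGR1 probe sets 1 was called, at 443, 369 and 499 with 76 and 130.3, 187 and 138 with 77 (1.53, adjusted p = 0.000437). MGST1, a membrane glutathione transferase outside the list and chosen here after its values were seen, stepped up across the groups, at 2249, 1808 and 1833 with DMSO, 2648, 3077 and 2894 with 77 and 4234, 3890.4 and 4283 with 76. All 3 MGST1 contrasts were called, with a direct difference of 0.53 (adjusted p = 0.00862) that lost its call without 76 replicate 3 or 77 replicate 1, between 0.47 and 0.58 over the 6 fits, and with median scaling or the signals as deposited.

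The remaining measured targets gave no call between the compounds. PIR differed by 0.87 (adjusted p = 0.18) and CBR1, carbonyl reductase, by 0.49 (adjusted p = 0.687), and both were called above DMSO with compound 76 (1.35 and 1.27) and not with 77 (0.48 and 0.78). ABCC2, an exporter of conjugates, was at the floor on all arrays with 77 and DMSO and measured 20, 35.2 and 49.8 with 76. FTL, the ferritin light chain, was alike with both compounds at 10168, 9905 and 9771 with 76 and 9179, 10168 and 9905 with 77 (0.03, interval -0.20 to 0.26). CBR3 was the single measured target with a difference below 0 (-0.08, interval -0.51 to 0.35). ABCC3 (0.31) and TRIM16L (0.14) had intervals that include 0.

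Of 8 measured genes of NRF2 and its regulators 1 was called, higher with 76, against 0.476% of all genes. At an unadjusted p below 0.05 in limma 3 were higher and 0 lower, against 710 and 556 of all 15124 genes. In 4 of the 8 all arrays with 76 lay above all arrays with 77, against 8.27% of all genes. In 1 they lay below, against 6.65%. NFE2L2, NRF2 itself, measured 1370.0, 1005 and 988 with 76 and 1288, 1148 and 1107 with 77, overlapping, with a difference of -0.09 and an interval of -0.40 to 0.22. KEAP1, its inhibitor, measured 381, 538 and 526 with 76, 305, 326 and 332 with 77 and 243, 286 and 297 with DMSO. The KEAP1 arrays did not overlap between the compounds, yet the difference of 0.57 was not called (adjusted p = 0.131), except without 76 replicate 1 (0.73, adjusted p = 0.0367). MAFG, a small MAF partner, differed by 0.79 (interval 0.22 to 1.36, adjusted p = 0.38), and BACH1, the competitor, by -0.22 (interval -0.71 to 0.27). SQSTM1, p62, an autophagy receptor that binds KEAP1, was the called gene, at 2621, 2167 and 2412 with 76 and 1068, 1280.3 and 1259 with 77 (1.00, SE 0.19, adjusted p = 0.0095). The SQSTM1 call ended without 76 replicate 1, 76 replicate 3 or 77 replicate 1 (differences between 0.91 and 1.07), and its 5 probe sets ranged from -0.60 to 1.30, with 2 called.

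Outside the NRF2 list, BEX5, a brain-expressed X-linked family member, measured 109, 206 and 208 with 76, 20, 25.1 and 20 with 77 and 20, 20 and 20 with DMSO. It was at the floor on 2 of 3 arrays with 77 and on all with DMSO, so it was at least 7.74-fold higher with 76 (adjusted p = 3.56e-07). NRCAM, a cell adhesion molecule of neurons, measured 157, 211 and 267 with 76 and 24.1, 43.6 and 45.3 with 77 and was at the floor on all 3 DMSO arrays (2.51, SE 0.29, adjusted p = 1.95e-05). Both genes kept their call without any 1 of the 6 arrays. Of the other lists, PDK4, a kinase that inhibits pyruvate dehydrogenase, was low but separate at 51.1, 48.4 and 53.9 with 76 and 22.8, 24.5 and 21.1 with 77 (1.17, adjusted p = 0.00342). With a floor of 10 PDK4 was not called, and its other probe set differed by -0.07. DNAJB4, a co-chaperone, differed by 0.98 (adjusted p = 0.00824) and lost its call without 76 replicate 1 or 77 replicate 2, between 0.85 and 1.10. The other DNAJB4 probe set, at 1.15, was not called. FN1, fibronectin, measured 6357, 3839 and 4769.8 with 76, 3372, 2248 and 2227 with 77 and 2547, 1835 and 2189 with DMSO (0.93, adjusted p = 0.0194), with 4 of 7 probe sets called. The FN1 call ended without 76 replicate 1, 76 replicate 3, 77 replicate 2 or 77 replicate 3, with differences between 0.74 and 1.13.

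Several further called genes, chosen after their values were seen for their size, their function or their constancy, were also higher with 76. KYNU, kynureninase of tryptophan breakdown, measured 310.2, 925 and 729 with 76 and 75.1, 319 and 137 with 77, the single called gene whose arrays overlapped (2.00, adjusted p = 0.0141). KYNU lost its call without 76 replicates 2 or 3 or 77 replicates 1 or 3, between 1.50 and 2.55. TRIM16, a ubiquitin ligase, measured 1246, 2019.8 and 2077 with 76 and 464, 765 and 817 with 77 (1.39, adjusted p = 0.00913), with its call lost without 76 replicates 2 or 3 or 77 replicate 1, between 1.13 and 1.63. ANXA10, an annexin, measured 133.3, 152 and 169 with 76 and 21.9, 68.7 and 31.3 with 77 (2.06, adjusted p = 0.000961), and SLC12A8, a membrane carrier, 456, 269.7 and 399 and 119, 78.7 and 121 (1.81, adjusted p = 0.000301). Both were called in all 6 fits that leave out 1 array. ABCG2, a drug efflux pump, measured 105, 88.2 and 90.6 with 76 and 38.9, 41.5 and 30.7 with 77 (1.36, adjusted p = 0.0135), a call that ended without 76 replicates 1 or 3 or 77 replicate 3, between 1.23 and 1.45. ASPH, aspartate beta-hydroxylase, measured 6265, 5814 and 6378 with 76, 2316, 2730.1 and 3038 with 77 and 1833, 1982 and 1927 with DMSO (1.20, SE 0.11, adjusted p = 8.68e-07). ASF1A, a histone chaperone, measured 572, 673 and 621 with 76 and 305, 287 and 275 with 77, with both probe sets called (1.11, adjusted p = 3.62e-05), and ASPH and ASF1A also kept their calls in all 6 fits. The 8 probe sets of ASPH ranged from 0.24 to 1.47, with 2 called.

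Genes lower with compound 76 were fewer than those higher. USP16, a deubiquitinase that acts on histone H2A, had the smallest adjusted p among them, at 270.1, 279 and 279 with 76, 625, 629 and 693 with 77 and 502, 597 and 531 with DMSO. The arrays with 76 lay below all others, and those with 77 above the vehicle. All 3 USP16 probe sets were called, and the difference was -1.23 (SE 0.12, adjusted p = 2.38e-06). NMU, the peptide neuromedin U, measured 67.1, 98.1 and 83.3 with 76 and 304, 156 and 200.3 with 77 (-1.37, adjusted p = 0.00439) and kept its call in all 6 fits. RRAS, a small GTPase, measured 112, 167 and 184 with 76 and 358, 393 and 365 with 77 (-1.30, adjusted p = 0.00597) and was not called without 76 replicate 1, with differences between -1.44 and -1.09. STAP2, a signalling adaptor, measured 47, 69.5 and 73.4 with 76 and 121, 156 and 162 with 77 (-1.22, adjusted p = 0.00824), and its call ended without 76 replicate 1 or 77 replicates 2 or 3, between -1.35 and -1.02. In USP16, NMU and STAP2, as in COXFA4L3 and CLEC4E, compound 76 was also called below DMSO and compound 77 was not called against it.

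CLEC4E, a C-type lectin receptor of myeloid cells, had the largest fall, at 38, 35 and 20 with 76, 200.0, 156 and 83.7 with 77 and 172, 184 and 77.7 with DMSO (-2.21, SE 0.48, adjusted p = 0.0313). With 76 it was near the floor, and its call held in 1 of the 6 fits that leave out an array, the one without 77 replicate 3, between -2.57 and -1.92. Of the 8 measured leukocyte markers PTPRC, CD3E, CD14 and LYZ were at the floor on all 6 arrays, whereas ITGAM, a myeloid integrin, measured 32.4 to 66.6 with 76 and 24.96 to 39.9 with 77, and their part in the result was not tested. COXFA4L3, related to a subunit of cytochrome c oxidase, measured 249, 619 and 409 with 76 and 760.2, 1489 and 875 with 77 (-1.33, adjusted p = 0.031), a call lost without 76 replicates 1 or 3 or 77 replicates 2 or 3, between -1.64 and -0.99. PLAU, urokinase, measured 108, 139 and 95.8 with 76, 283, 531 and 287 with 77 and 201, 212 and 151 with DMSO (-1.64, adjusted p = 0.0273), with 1 of 2 probe sets called. TGM2, transglutaminase, measured 354, 515 and 304 with 76, 1003, 1279 and 904 with 77 and 541, 1016 and 637 with DMSO (-1.46, adjusted p = 0.0108), with all 3 probe sets called. For PLAU and TGM2 the mean of the vehicle lay between those of the compounds, and neither compound was called against it. The PLAU call held only without 77 replicate 1 (differences between -1.79 and -1.34), and that of TGM2 ended without 76 replicates 1 or 3 or 77 replicate 2 (between -1.68 and -1.30). Under median scaling PLAU, TGM2 and COXFA4L3 were not called, nor were GBP1, VCAM1 and ICAM1 below.

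Of 23 measured NF-kB targets and cytokines 0 were higher and 1 was lower with 76, beside 0.192% of all genes, their median difference was -0.47, and 20 of 23 were below 0. At an unadjusted p below 0.05 in limma 0 were higher and 7 lower, against 710 and 556 of all 15124 genes. In 9 of 23 all arrays with 76 lay below all arrays with 77, against 6.65% of all genes. VCAM1 and GBP1, given below, are not among these 23. ICAM1, an adhesion molecule that binds leukocytes, was the called gene, at 138, 203 and 193 with 76, 289, 481 and 387 with 77 and 314, 351 and 213 with DMSO (-1.11, adjusted p = 0.0484). ICAM1 kept its call only without 77 replicate 1, with differences between -1.30 and -0.93. Of its 3 probe sets 1 was called, with differences between -1.23 and -0.96. VCAM1, the related adhesion molecule, measured 275, 158 and 198 with 76, 514, 489 and 515 with 77 and 280.0, 474 and 290.1 with DMSO (-1.30, SE 0.24, adjusted p = 0.00699), and was not called without 76 replicate 2, between -1.52 and -1.12. GBP1, an interferon-induced GTPase, measured 139, 136 and 109.7 with 76, 284, 687 and 429.9 with 77 and 158, 248 and 126 with DMSO (-1.78, adjusted p = 0.0258), with all 3 probe sets called and the call kept only without 77 replicate 1 (between -2.09 and -1.45). The cytokines IL6 (-1.49, interval -2.89 to -0.09) and CXCL8 (-1.73, interval -4.13 to 0.67) varied more between replicates and were not called. The interferon response list as a whole had 0 of 27 called by limma, 4 at an unadjusted p below 0.05 and a median of 0.13, with RSAD2 at 1.40 and IFI27 at -1.01.

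**Figure D3:**
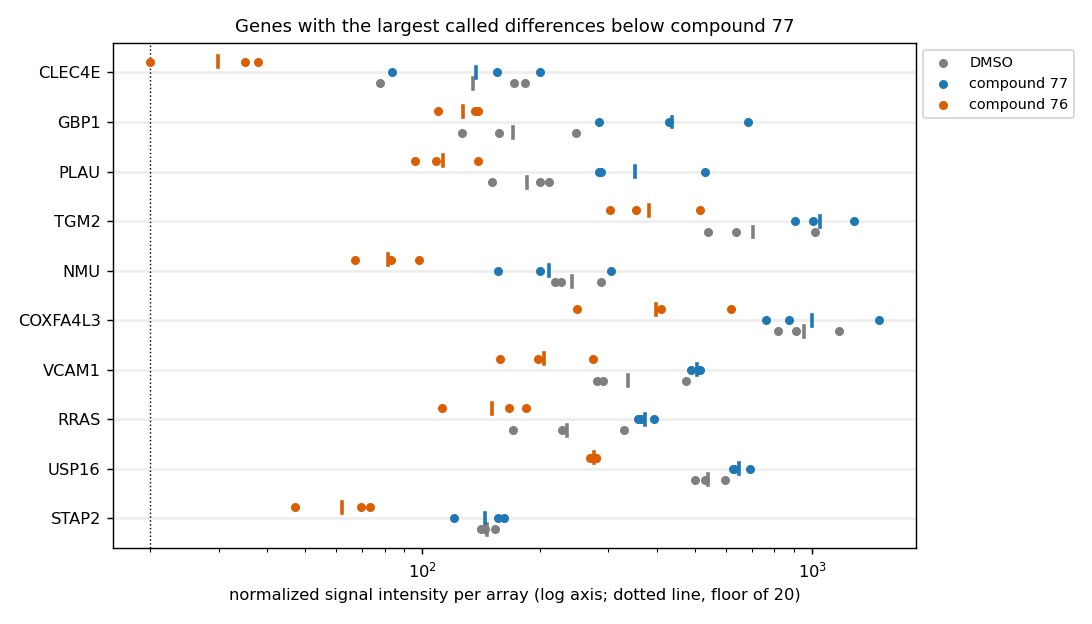
Normalized signal intensity on each array (points, log axis) for the 10 named genes with the largest called differences below compound 77, with DMSO in grey, compound 77 in blue and compound 76 in orange; bars are geometric means of 3 arrays and the dotted line is the floor of 20. In all 10 genes the orange points lie to the left of the blue points, and the grey points overlap the blue ones in NMU, STAP2, COXFA4L3, CLEC4E and TGM2 and lie between the compounds in PLAU, VCAM1 and USP16.

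In some lower calls compound 77 was called above the vehicle. SAT1, which acetylates spermidine and spermine, measured 801, 1083 and 985 with 77, 576, 442 and 508 with 76 and 521, 404 and 512 with DMSO. Compound 76 lay at the level of the vehicle (0.09), compound 77 was called above it (1.00, adjusted p = 0.0103), and the direct difference was -0.91 (adjusted p = 0.00996). MYL9, a myosin regulatory light chain, had the same order, at 432, 720.2 and 714 with 77, 213, 316 and 299 with 76 and 194, 228 and 349 with DMSO (direct -1.15, adjusted p = 0.0143, and 1.28 for 77 against DMSO, adjusted p = 0.013). SAT1 lost its direct call without 76 replicates 2 or 3 or 77 replicates 2 or 3 (between -1.03 and -0.81), and MYL9 without 76 replicate 1 or 77 replicates 2 or 3 (between -1.40 and -0.98). The second MYL9 probe set differed by 0.66. TPM1, tropomyosin, fell instead with compound 76, at 2516, 2653 and 2793 against 4443, 4076 and 4493 with 77 and 4566, 4945 and 4829 with DMSO (-0.71, adjusted p = 0.000388), and TM4SF1, a tetraspan membrane protein, likewise at 901, 1147 and 946 against 1782, 1970.2 and 1909 (-0.93, adjusted p = 0.000883). TPM1 and TM4SF1 were called in all 6 fits, and the 6 probe sets of TPM1 ranged from -1.04 to 0.01, with 3 called. Under median scaling TPM1, TM4SF1 and MYL9 were not called. These 4 genes were chosen after their values were seen.

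The HIF pathway, which both compounds were selected to inhibit, gave 1 call between them. EPAS1 measured 445, 261 and 253 with 76, 517, 463 and 404 with 77 and 556, 402 and 434 with DMSO. Replicate 1 with 76 lay among the arrays with 77, and replicates 2 and 3 lay below all of them. The difference was -0.57 (95% interval -1.07 to -0.08, adjusted p = 0.575), and neither compound was called against DMSO (-0.57 and -0.0018). ARNT, the partner of HIF-2a, differed by -0.05 (interval -0.84 to 0.74) and VHL by -0.02 (interval -0.57 to 0.54). HIF1A had no single-gene probe set among those kept. Of the 14 measured HIF subunits and regulators limma called 0, beside 0.668% of all genes, and 12 had intervals within 2-fold. At an unadjusted p below 0.05 in limma 1 was lower, as were 556 of all 15124 genes.

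Of 30 measured HIF-2a targets 1 was higher and 0 were lower with compound 76, against 0.476% and 0.192% of all genes, and at an unadjusted p below 0.05 there were 1 and 6. The median difference was -0.047, 18 of 30 lay below 0, and 15 of 30 had intervals within 2-fold. Beside DMSO the median was -0.46 with compound 76, with 5 called lower (0.76% of all genes) and 1 higher (1.02%), and -0.27 with compound 77, with 0 called. VEGFA, the growth factor of blood vessels, measured 706, 376 and 334 with 76, 1048, 1011 and 779 with 77 and 1436, 1139.9 and 926 with DMSO. The compounds did not overlap, but the difference of -1.07 (interval -1.68 to -0.46) was not called (adjusted p = 0.157), except without 76 replicate 1 (-1.40, adjusted p = 0.0372). CCND1, cyclin D1, which drives entry into S phase, measured 462, 552 and 376 with 76, 739.9, 809 and 888 with 77 and 677, 959 and 664 with DMSO. Its difference of -0.82 (interval -1.22 to -0.43) missed the threshold (adjusted p = 0.0541) and passed it without 76 replicate 2 (-0.96, adjusted p = 0.0489). SLC2A1, the glucose transporter GLUT1, measured 535, 526 and 423 with 76, 958, 737 and 727 with 77 and 1011, 876 and 784 with DMSO (-0.70, interval -1.04 to -0.36, adjusted p = 0.0588), and with the signals as deposited it was called. In VEGFA, CCND1 and SLC2A1 all arrays with 76 lay below all arrays with 77, as 6.65% of all genes did.

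Other HIF-2a targets showed wide intervals or nearly equal levels. EDN1, endothelin, differed by -1.15 with an interval of -2.23 to -0.07, and TGFA, an EGF receptor ligand, by -0.65 with an interval of -1.10 to -0.21. ENO2, a neuronal enolase, measured 42.8, 68.1 and 74.3 with 76, 156, 79.2 and 109 with 77 and 269, 203 and 303 with DMSO, so both compounds lay below the vehicle and did not overlap each other (-0.88, adjusted p = 0.344). IGFBP3, which binds insulin-like growth factors, measured 796, 289 and 509 with 76, 1047, 608 and 906 with 77 and 2599, 1368 and 2245 with DMSO (-0.77, interval -1.69 to 0.15). For EGLN3, one of the oxygen-sensing hydroxylases, the compounds overlapped at 201, 141 and 177 with 76 and 254, 102 and 171 with 77, both below 629, 342 and 371 with DMSO, and the difference was 0.06 (interval -0.91 to 1.03). ADM, adrenomedullin (0.0099, interval -0.47 to 0.49), and NDRG1 (0.19, interval -0.84 to 1.21) likewise gave no direction. ACKR3, an atypical chemokine receptor, was the called target, higher with 76 at 111, 162 and 146 against 59.3, 33.4 and 40.4 with 77 and 82.3, 40.7 and 55.7 with DMSO (1.68, SE 0.36, adjusted p = 0.0287). The ACKR3 call held only without 77 replicate 1 (differences between 1.49 and 1.91), ended with a floor of 40 or without the filter, and its other probe set differed by -0.24.

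**Figure D4:**
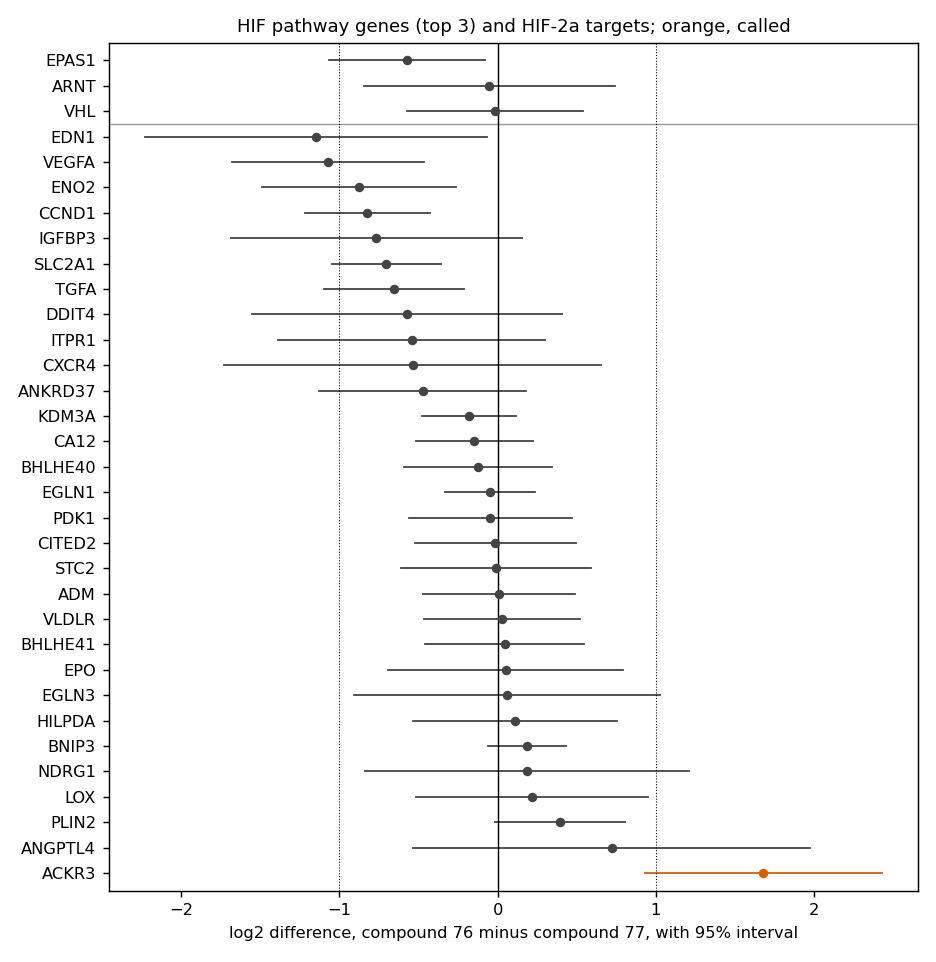
Log2 difference between compound 76 and compound 77 with its 95% interval (horizontal) for EPAS1, ARNT and VHL (above the grey line) and the 30 measured HIF-2a targets (below it, in order of difference); dotted lines mark 2-fold and orange marks the called gene. The intervals of EPAS1, EDN1, VEGFA, ENO2, CCND1, SLC2A1 and TGFA lie wholly below 0 without being called, the others in grey include 0, and ACKR3 at 1.68 is the called gene.

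Iron regulation, which bears on EPAS1 through its iron-responsive element, gave 0 calls by limma among 12 measured genes, beside 0.668% of all genes. At an unadjusted p below 0.05 in limma 3 were lower, as were 556 of all 15124 genes. The median difference was 0.0034, and 11 of 12 intervals lay within 2-fold. TFRC, the transferrin receptor, measured 3698, 3372 and 3311 with 76, 2164, 3398 and 3140.2 with 77 and 1668, 1698 and 1929 with DMSO. The compounds overlapped, with a difference of 0.28 (interval -0.25 to 0.80), and lay above the vehicle without a call (0.97 and 0.69). ACO1, iron regulatory protein 1, differed by 0.09 (interval -0.30 to 0.48) and FBXL5, which degrades the iron regulatory proteins, by 0.03 (interval -0.29 to 0.35). STEAP3, a ferrireductase, measured 134, 201 and 199 with 76 and 223, 284 and 300.0 with 77, without overlap and without a call (-0.61, adjusted p = 0.185), and was called below DMSO with 76 (-0.77, adjusted p = 0.0211). SLC40A1, the iron exporter ferroportin, was dim, at 33.9, 25 and 20 with 76 and 34.4, 45.3 and 61.2 with 77 (-0.83, interval -1.54 to -0.12). IREB2 and FTH1 had no single-gene probe set among those kept, so neither gene was compared and the count of calls does not cover them.

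The remaining groups held 0 or 1 called member, and the number that passed an unadjusted p below 0.05 in limma is given beside the calls. Of all 15124 genes 0.476% were called higher and 0.192% lower, and 710 were higher and 556 lower unadjusted. The proteasome had 0 of 28 called and 1 unadjusted, mitosis and G2/M 0 of 28 and 4 with a median of -0.15, and DNA replication 0 of 26 and 0 with a median of -0.062. All intervals of these groups lay within 2-fold. Translation initiation had 0 of 28 called and 1 unadjusted, with 27 intervals within 2-fold, and the respiratory chain 0 of 24 and 0, with 23.

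Stress pathways other than that of NRF2 gave few calls, beside 0.476% of all genes called higher and 0.192% called lower. Unadjusted, 710 of all 15124 genes were higher and 556 lower. Chaperones of the endoplasmic reticulum had 0 of 20 called, 3 unadjusted and a median of -0.13. Heat shock genes had 1 of 17 called, DNAJB4, with 3 unadjusted, and ATF4 targets 1 of 27, SLC7A11, which is also an NRF2 target, with 2 unadjusted. p53 targets had 0 of 19 called, 6 lower unadjusted, a median of -0.28 and 18 differences below 0. GDF15, a stress cytokine on the p53 list, measured 231, 112 and 132 with 76, 145, 676 and 325 with 77 and 110.3, 53.4 and 73.7 with DMSO, with overlap and a wide spread between replicates (interval -2.05 to -0.09). Metallothioneins and zinc genes had 0 of 9 called, 3 lower unadjusted and a median of -0.26, and against DMSO 5 of 9 were called lower with 76, beside 0.76% of all genes, and 0 with 77, beside 0.0397%. The aryl hydrocarbon receptor group had 0 of 8 called and 4 unadjusted, with TIPARP, a target that represses the receptor, at -1.07 (adjusted p = 0.0853) and CYP1B1, a cytochrome P450, at -0.75 (adjusted p = 0.478). TIPARP passed the threshold without 77 replicate 1 (-1.27, adjusted p = 0.0496).

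Metabolic and structural groups held 0 or 1 call each, beside 0.476% of all genes called higher and 0.192% called lower. Unadjusted, 710 of all 15124 genes were higher and 556 lower. Glycolysis had 1 of 24 called, PDK4, with 4 unadjusted, extracellular matrix 1 of 32, FN1, with 6, and autophagy and lysosome 1 of 27, SQSTM1, with 3. Cholesterol synthesis had 0 of 17 called, 2 unadjusted and a median of 0.066, and fatty acid synthesis and lipid storage 0 of 19, 4 and 0.22. Immediate early genes had 0 of 26 called, 4 unadjusted and a median of -0.081, and the TGF-beta response 0 of 22, 3 and -0.099. Adhesion and epithelial genes had 0 of 23 called, 5 lower unadjusted and a median of -0.27, class I presentation 0 of 13, 3 lower and -0.19, and histones 0 of 9, 1 lower and -0.17.

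**Figure D5:**
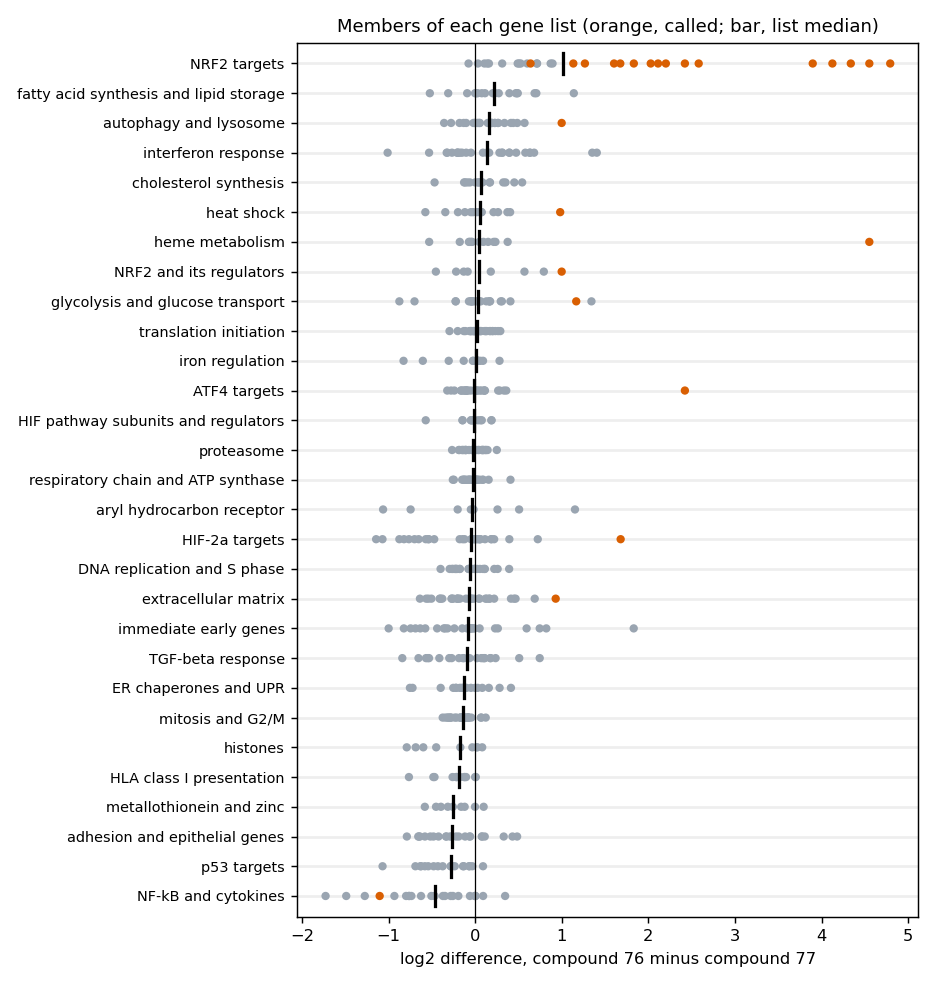
Log2 difference between compound 76 and compound 77 (horizontal) of every measured member of 29 gene lists, in order of list median (black bar); orange points are called and grey points are not. NRF2 targets reach from -0.08 to 4.79 with a median of 1.01, while the medians of the other lists lie between -0.47 and 0.22.

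Among the genes called between compound 77 and DMSO were several at a like level with compound 76. SEMA6A, a semaphorin, measured 97.3, 34.8 and 81.5 with 76, 158, 43.2 and 80.4 with 77 and 527, 453 and 489 with DMSO. Both compounds were called below the vehicle (-2.91, adjusted p = 0.000492, and -2.58, adjusted p = 0.00959), and they overlapped each other (-0.33). CTSL, the protease cathepsin L, measured 1135, 1223 and 1316 with 76, 995, 1511 and 1223 with 77 and 722, 629 and 656 with DMSO, with an interval of -0.30 to 0.29 for the difference between the compounds. CLU, the chaperone clusterin, was above DMSO with both (1.98 and 2.29), at 211, 232 and 148 with 76, 166, 293 and 279.8 with 77 and 89.2, 30.3 and 43.3 with DMSO. In a few genes 77 was called against DMSO and 76 was not. UGT1A6, a glucuronosyltransferase, measured 323, 193 and 297 with 77, 851, 379.5 and 626 with 76 and 1070.0, 605 and 909 with DMSO. It was lower with 77 than with DMSO (-1.66, adjusted p = 0.0462), and the direct difference of 1.15 was not called (interval 0.44 to 1.87, adjusted p = 0.229). These values are of the 1 kept probe set that carries UGT1A6 alone. Probe sets with several symbols are outside the gene values, and some of them were called with 77 lowest. A probe set with 9 symbols measured 2726, 2740 and 3154 with 76, 760, 644 and 787 with 77 and 2583, 1625 and 2663 with DMSO. Its direct difference was 1.98 (limma adjusted p = 0.000133), and that of a probe set with 6 symbols was 1.94 (limma adjusted p = 3.61e-06). They are not assigned to a gene here, so the absence of a call holds for the UGT1A6 probe set alone. HADH, an enzyme of fatty acid oxidation, was likewise lowest with 77, at 135, 85.4 and 89.4 with 77, 186, 137 and 174 with 76 and 198, 199.5 and 215 with DMSO, with a direct difference of 0.70 (interval 0.33 to 1.08). JAG1, a Notch ligand, measured 429, 455 and 384 with 77, 386, 171 and 244 with 76 and 142, 170.2 and 179.9 with DMSO, called above DMSO with 77 (1.37, adjusted p = 0.0395) and not called between the compounds (-0.74, interval -1.31 to -0.17). These genes, like BLVRB and MGST1, were chosen after their values were seen.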

How the data were processed

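Signal intensities on a linear scale from 26 arrays were deposited by the authors as 1 table. Per the submitters' processing notes they come from MAS5. A floor of 20 and a filter on variation described in the labels were not applied in the deposited intensity table, which holds 646373 values below 20 and 0 above the ceiling of 16000. From the values, 24 arrays share 1 mean signal, and compound 40 replicates 2 and 3 were scaled in another way.

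The 62 control probe sets were left out, the 26 arrays were quantile normalized, signals were bounded by the floor of 20 and the ceiling of 16000, and log2 was taken. The 35013 of 54613 probe sets at or above the array's median on at least 3 of the 24 replicated arrays were kept. limma 3.58.1 in R 4.3.3 (lmFit, eBayes with a trend) was fitted on the 24 arrays of 8 groups, with 16 residual degrees of freedom, and all adjusted p-values in the text are from limma with Benjamini-Hochberg adjustment over all kept probe sets, called below 0.05. The script was tested on simulated data.

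Gene names came from the platform annotation: 28327 kept probe sets have 1 gene, 1297 several and 5389 none. Of all 41097 single-gene probe sets 41043 matched the RefSeq table, which changed 0 symbols. Each of 15124 genes is represented by the brightest probe set that carries its symbol alone. By rule the text names, in each direction, the 10 called genes of greatest difference without overlap between arrays and with the brighter group at or above the 70th percentile. Every called list member and every measured NRF2 target is named too. The rule also covered the HIF-2a targets, the NRF2 regulators, the iron genes and up to 2 extremes each way of other lists. Of these only a part is given in the text, and the rule did not fix which uncalled ones. Other names were chosen after their values were seen. The members and the 33 lists were chosen with earlier results of these data known, so list counts carry no test. The number of arrays limits the precision. Alternatives were the deposited scale, median scaling, floors of 10 and 40, other filters, fewer arrays, the replicate number as a block, no trend, array weights and leaving out each array. Same-numbered arrays of the compounds correlated at 0.0712 to 0.222 in their deviations, and differently numbered ones at -0.191 to 0.00618. Each of the 6 arrays correlated best with its own number, so a part of the spread may be shared by number. The labels do not say that numbers pair the arrays, so the main fit has no pairing and the block is given as an alternative.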

Additional observations from a re-analysis of the deposited data

How the results depend on the processing

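For 76 against 77, 166 probe sets were called, 117 higher and 49 lower. Leaving out 1 of the 6 arrays gave 76 to 143 calls, 54 to 89 higher and 20 to 56 lower. Median scaling lowered the lower calls to 17 and the absence of a filter to 32. The 6 arrays alone gave 6 calls, 5 higher and 1 lower, with 4 residual degrees of freedom. Array weights gave 463, 293 higher and 170 lower. With the replicate number as a block there were 276 calls, 178 higher and 98 lower, and the block gave 849 for 76 against DMSO and 175 for 77 against DMSO. The block fit included all 166 calls, each of the 6 arrays correlated best with its own number, and the labels do not say that a number marks a shared day or culture. The NRF2 targets called higher numbered 15 to 19 of 30 in every setting except the 6 arrays alone, which called 4, and 0 were called lower in any.

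The alternatives for the contrasts with DMSO were added after seeing the data. For 76 against DMSO the 474 calls became 1291 with array weights and 226 to 381 without 1 array of 76 or DMSO, among them 273 without 76 replicate 2, 226 without 76 replicate 3, and 267, 277 and 267 without DMSO replicates 1, 2 and 3. For 77 against DMSO the 60 calls became 27 under median scaling, 34 without a filter, 91 with the 18 arrays outside PRC3 and WT8, 36 without a trend and 219 with array weights. Without 1 array of 77 or DMSO they ranged from 15 to 125. The count was 125 without 77 replicate 1, 15 without the second and 22 without the third, and 25, 34 and 25 on leaving out the DMSO arrays in the order of their numbers.

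Median scaling shifted the list medians of iron regulation to 0.067, NRF2 regulators to 0.12, heme metabolism to 0.13, heat shock to 0.13, endoplasmic reticulum chaperones to -0.058, glycolysis to 0.10, translation initiation to 0.12 and the respiratory chain to 0.057. A floor of 10 shifted those of NRF2 targets to 1.20, fibroblast markers to 0.078 and endothelial markers to -0.084. A floor of 40 shifted adhesion genes to -0.21 and renal markers to 0, and the 70th percentile filter endothelial markers to -0.28. Leukocyte markers had no value under that filter. Leaving out 1 array moved the medians between -0.19 and -0.019 for HIF-2a targets, 0.015 and 0.085 for NRF2 regulators, -0.0043 and 0.15 for heme metabolism, -0.019 and 0.12 for heat shock, -0.17 and -0.076 for endoplasmic reticulum chaperones, -0.0078 and 0.068 for glycolysis, and 0.039 and 0.36 for fatty acid synthesis. The ranges were -0.31 to -0.077 for immediate early genes, -0.13 to -0.020 for TGF-beta response, 0.061 to 0.19 for autophagy, -0.15 to 0.17 for the aryl hydrocarbon receptor, -0.055 to 0.082 for fibroblast markers and -0.28 to -0.12 for renal markers. Of the counts and medians under all alternatives 580 stayed close to the reported value, 39 medians moved, 12 counts rose and 29 fell by more than 1.5 times, and no called value changed sign. The causes were not tested. Signals near the floor, 17.0% to 17.4% of kept values on these arrays, understate differences of dim genes.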

Other observations

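Against DMSO, histone genes had medians of 0.56 with compound 76 and 1.01 with compound 77, and the same 3 DMSO arrays enter both contrasts. Of 9 measured histone genes 2 were called higher with 76, beside 1.02% of all genes, and 2 with 77, beside 0.139%. Immediate early genes had medians of 0.19 and 0.45, with 3 of 26 called higher with 76 and 1 with 77, beside the same shares of all genes. p53 targets had medians of 0.23 with 76 and 0.56 with 77, with 0 of 19 called in either contrast.

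Of the 166 called probe sets, 147 carry 1 gene symbol, 10 carry several and 9 carry none in the annotation used here. The 147 name 113 genes when every single-gene probe set is counted, against the 101 genes taken from the brightest probe set.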
